A study of Homo sapiens with 6 samples.

Results

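The KRAB zinc finger gene clusters of human chromosome 19 were examined for peaks of YAP and TAZ in H1299 cells. A deposited peak (hg19) was taken as a member where its midpoint lay in chr19:20000000-24400000, chr19:52200000-54000000 or chr19:56500000-59100000. These stretches are called the pericentromeric cluster (4.4 Mb, on the short arm beside the centromere), the inner long-arm cluster (1.8 Mb) and the distal long-arm cluster (2.6 Mb). They held 6462 of the 1389618 deposited peaks on chromosomes 1 to 22 and X, or 0.465%. Of these, 3255 lay in the pericentromeric, 1322 in the inner long-arm and 1885 in the distal long-arm cluster. A gene-rich stretch of the same chromosome, chr19:13000000-19500000 (6.5 Mb, 3752 peaks), served as the reference block.

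Chromatin immunoprecipitation with sequencing had been carried out on H1299, an established line from a human non-small cell lung cancer, to compare where YAP and TAZ bind. All 6 samples were H1299 cells starved of serum for 18 h; 2 were precipitated with an anti-YAP and 2 with an anti-TAZ antibody, and 2 were inputs. Each of the 4 precipitated samples had its own list of broad peaks, and the inputs had none. The labels did not say that replicates came from separate cultures, so the spread between them may be technical, and peak lists hold neither read totals nor expression by which depth or the cell line could be checked.

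KRAB zinc finger genes encode a large family of DNA-binding repressors. Each protein reads DNA through an array of zinc fingers, and its KRAB domain recruits the corepressor TRIM28, which brings in enzymes that lay down the silencing mark H3K9me3. Many of these proteins silence transposable elements, and the genes arose by tandem duplication, so that neighbours are often near copies of each other. YAP and TAZ, the coactivators that the Hippo pathway restrains, have no DNA-binding domain of their own and reach chromatin mainly through TEAD factors, often beside AP-1.

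The likeness of neighbouring copies bears on where a short read can be placed, so the most alike promoters of the pericentromeric and the distal long-arm runs of zinc finger genes are shown. The sequences are RefSeq's (GRCh38.p14), from 250 bases before to 50 bases after each gene's start, and the capitals mark the longest stretch that is identical in both genes of a pair. ZNF714 lies at chr19:21081953-21082252 (+) and ZNF431 at chr19:21141790-21142089 (+) in GRCh38.p14. ZNF587B lies at chr19:57830049-57830348 (+) and ZNF814 at chr19:57888988-57889287 (-) in the same build.
ZNF714: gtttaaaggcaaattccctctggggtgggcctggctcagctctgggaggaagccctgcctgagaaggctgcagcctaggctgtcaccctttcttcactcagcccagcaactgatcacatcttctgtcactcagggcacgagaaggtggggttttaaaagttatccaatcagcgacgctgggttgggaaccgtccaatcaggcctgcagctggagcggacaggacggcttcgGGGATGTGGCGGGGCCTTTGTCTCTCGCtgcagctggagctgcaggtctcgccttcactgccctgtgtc
ZNF431: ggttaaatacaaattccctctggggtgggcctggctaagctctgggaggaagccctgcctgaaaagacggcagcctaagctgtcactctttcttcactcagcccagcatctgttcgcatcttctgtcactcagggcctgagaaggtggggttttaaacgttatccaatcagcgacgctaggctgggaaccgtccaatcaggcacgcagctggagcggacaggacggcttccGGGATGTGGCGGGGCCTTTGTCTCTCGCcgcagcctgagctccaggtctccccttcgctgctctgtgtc
ZNF587B: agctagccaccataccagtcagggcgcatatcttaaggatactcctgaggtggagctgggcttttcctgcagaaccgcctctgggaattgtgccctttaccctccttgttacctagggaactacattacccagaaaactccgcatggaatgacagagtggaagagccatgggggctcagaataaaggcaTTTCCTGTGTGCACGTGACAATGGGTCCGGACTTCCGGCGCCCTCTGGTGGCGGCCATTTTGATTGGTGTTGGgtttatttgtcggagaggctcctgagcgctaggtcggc
ZNF814: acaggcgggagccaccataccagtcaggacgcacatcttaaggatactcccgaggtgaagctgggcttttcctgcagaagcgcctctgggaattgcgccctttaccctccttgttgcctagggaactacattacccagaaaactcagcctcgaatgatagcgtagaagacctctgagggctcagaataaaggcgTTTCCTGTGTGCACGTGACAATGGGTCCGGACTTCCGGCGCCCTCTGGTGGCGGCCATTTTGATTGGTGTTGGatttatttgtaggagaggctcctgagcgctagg
The ZNF714 and ZNF431 promoters were 91% identical with a shared run of 28 bases, and those of ZNF587B and ZNF814 were 91.3% identical with a shared run of 73 bases. Because the peaks are in hg19, no peak was placed on a promoter or a gene.

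Likeness among copies differed between the runs of genes. In RefSeq's gene order, the run from ZNF682 to ZNF254 held 34 protein-coding genes, 32 of them with zinc finger symbols, and 26 of these had a promoter in the table. The promoter most like each of these 26 was 83.8% identical in the median, and 23 of 26 had a partner at 80% or more. The run from ZNF577 to ZNF813 (39 zinc finger symbols among 46 genes, 32 promoters) had a median of 70.7%, with 10 of the 30 promoters compared at 80% or more. The run from ZNF787 to MZF1 (67 among 87 genes, 58 promoters) had a median of 64.7%, with 4 of 57 at 80% or more. In the reference run from CALR to TM6SF2 (171 genes, 137 promoters), the median was 64% and 0 of 136 reached 80%. Promoters of the pericentromeric run were also poorer in CpG, with a median of 10 CpG per promoter, against 25 and 22.5 in the inner and distal long-arm runs and 14 over all 27305 promoters of the table. How reads that fit more than 1 copy were treated is not given in the sources used here, and the part of sequence likeness in the peak counts was not tested.

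The promoters were searched for letters of the partner factors' motifs, with no test. GGAATG, the letters of a TEAD motif, searched on both strands, stood in 1 of 26 pericentromeric promoters (3.85%), 3 of 32 inner long-arm (9.38%) and 9 of 58 distal long-arm promoters (15.5%). All promoters of the table held it in 14.05% of cases and the reference run in 12.4%. TGANTCA, the letters of an AP-1 motif, was also searched on both strands and can share end letters with the first where they adjoin. It stood in 0 of 26, 7 of 32 (21.9%) and 2 of 58 (3.45%) promoters of the same runs, against 7.76% of all promoters and 5.11% in the reference run. With so few promoters a run, these counts are small. These matches describe letters only and were not tied to any peak.

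The clusters held more peaks per Mb than the reference block but had far fewer bases under them. Peaks per Mb count listed intervals, which were wider in the reference block. There, windows of 100 kb with more peaks had fewer covered bases (Spearman's rho -0.86), so a higher count need not mean more bound sites. The part of peak width in the density ratios was not tested. In the pericentromeric cluster, YAP replicates 1 and 2 had 190 and 185.5 peaks per Mb, and TAZ replicates 1 and 2 had 188.2 and 176.1. In the same order, the inner long-arm cluster had 185.6, 186.7, 185.0 and 177.2 peaks per Mb and the distal long-arm cluster 190.4, 186.5, 183.8 and 164.2. The reference block had 141.5, 149.4, 157.2 and 129.1, so each library's clusters lay above its own reference block. The mean ratio to the reference block was 1.28 for the pericentromeric and for the inner long-arm and 1.26 for the distal long-arm cluster (log2 0.36, 0.35 and 0.33, with SDs over the 4 libraries of 0.09, 0.10 and 0.08). The difference had the same sign in 4 of 4 libraries for each cluster. With 4 libraries, the two-sided exact sign-flip test cannot give a p below 0.125, which each of these reached (0.17 after Benjamini-Hochberg adjustment over the 30 contrasts tested). When peaks were kept only up to a q-value of 0.01, the pericentromeric contrast remained at log2 0.32, whereas those of the inner and distal long-arm clusters were 0.04 and 0.01. Over all deposited peaks the clusters differed little from each other in density, with mean log2 differences of 0.01 to 0.03 (exact p of 0.5 to 0.625). They moved apart among the better peaks. At the same q-value the pericentromeric density exceeded the inner long-arm one by log2 0.285 and the distal one by 0.31 (exact p = 0.125 each), and with equal list lengths by 0.11 (exact p = 0.25) and 0.15 (exact p = 0.125).

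The share of bases under peaks showed the opposite order. It was 36.8%, 33.5%, 27.3% and 26.3% in the pericentromeric cluster in YAP replicates 1 and 2 and TAZ replicates 1 and 2. In the inner long-arm cluster it was 37.3%, 29.97%, 26.4% and 24.4%, and in the distal long-arm cluster 31.5%, 25.2%, 24.5% and 24.3%. The reference block stood at 66.7%, 67.3%, 65.9% and 72.5%, so the blocks did not overlap in any library. The mean differences from the reference block were -37.1 ± 7.0, -38.6 ± 7.7 and -41.7 ± 5.3 percentage points (SD, n = 4), with the smallest p that the exact test allows, 0.125. Against chromosomes 1 to 22 and X, where 13.3% to 16.9% of the bases were under peaks, the clusters lay higher by 16.2, 14.8 and 11.6 points. The clusters therefore lay between the gene-rich reference and the genome as a whole.

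**Figure D1:**
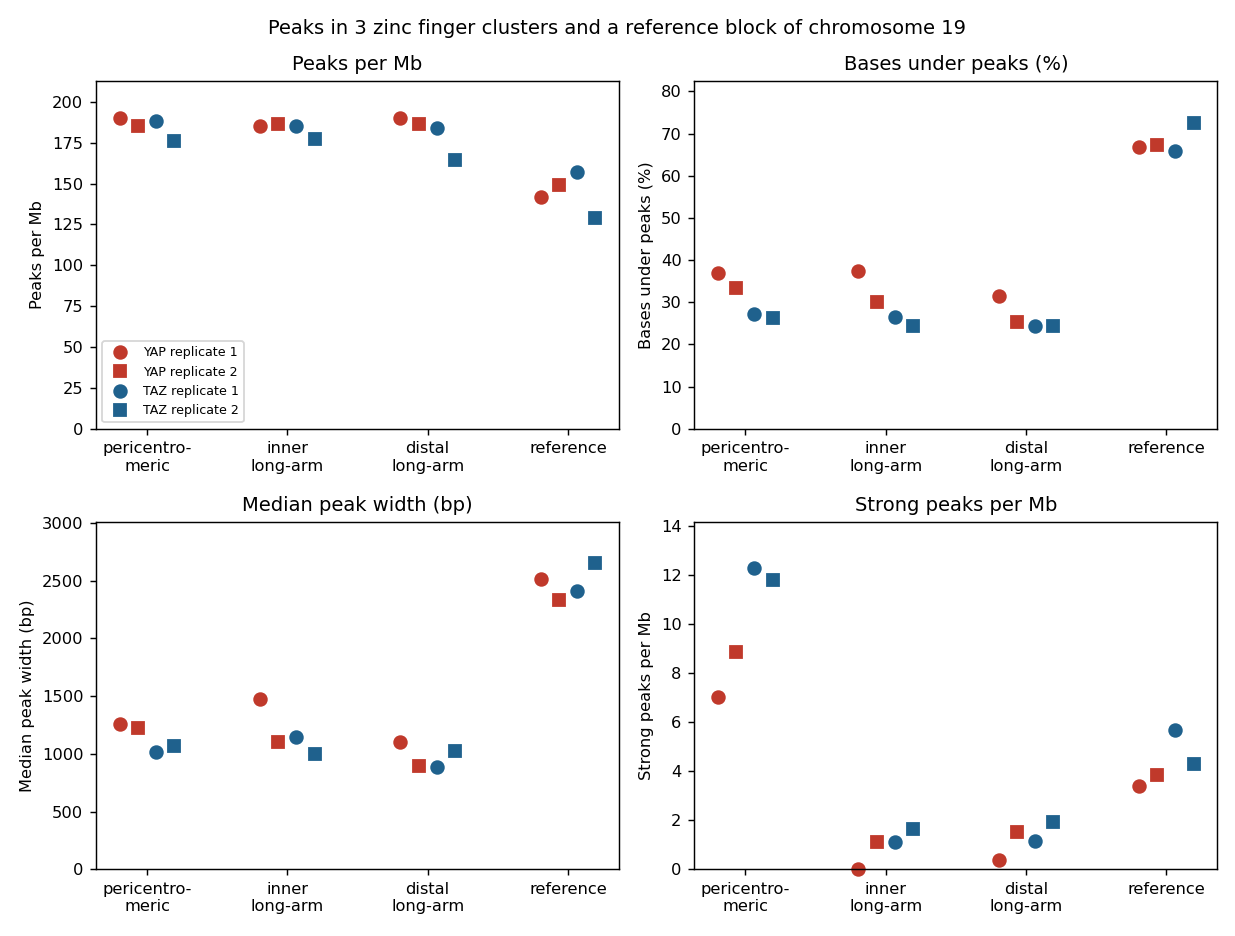
Peaks per Mb, bases under peaks (%), median peak width (bp) and strong peaks per Mb in the 3 zinc finger clusters and the reference block; each point is 1 library (red, YAP; blue, TAZ; circle, replicate 1; square, replicate 2) and all axes start at 0. All 3 clusters sit above the reference in peaks per Mb and below it in covered bases and width, while strong peaks per Mb lie above the reference in the pericentromeric cluster and below it in both long-arm clusters.

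Narrower peaks accompanied the lower coverage. Median widths were 1261.5, 1227, 1017 and 1066 bp in the pericentromeric cluster (YAP 1, YAP 2, TAZ 1, TAZ 2), 1471.5, 1106, 1148 and 995 bp in the inner long-arm cluster and 1106, 895, 889.5 and 1026 bp in the distal long-arm cluster. Reference peaks were 2513.5, 2330, 2411 and 2648 bp wide in the median, 2.17, 2.12 and 2.54 times the width in the 3 clusters on average. Very broad peaks were the clearest gap from the reference block: 2.09% to 7.78% of a cluster's peaks reached 5 kb, against 25.6% to 32.3% in that block. There they held 66.0% to 78.0% of the covered bases. Over chromosomes 1 to 22 and X, 3.03% to 3.95% of peaks reached 5 kb, inside the range of the clusters. In this measure the reference block thus stood apart, rather than the clusters. The widest peak of any library in the clusters was a YAP replicate 1 peak of 17106 bp at chr19:20130702-20147807, matched in YAP replicate 2 by a peak of 16546 bp at chr19:20131060-20147605. The widest peaks of the long-arm clusters measured 8378 to 11485 bp. Cluster peaks were also narrower than those of the rest of chromosome 19, with medians of 1827, 1670, 1705 and 1805 bp (mean log2 ratios of -0.62, -0.58 and -0.84). Over chromosomes 1 to 22 and X the median width was 613 to 717 bp, below that of every cluster.

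The fold, the enrichment of ChIP over input that the authors' peak caller gave each peak, set the pericentromeric cluster apart from the long-arm clusters. Its median fold was 3.34, 3.26, 3.22 and 3.11 in YAP replicates 1 and 2 and TAZ replicates 1 and 2. The inner long-arm cluster had 3.02, 2.98, 3.01 and 2.91 and the distal long-arm cluster 3.01, 3.07, 3.05 and 2.87, below the pericentromeric value in every library. The pericentromeric median exceeded the inner long-arm one by 0.25 ± 0.05 and the distal one by 0.23 ± 0.07 (SD, n = 4; 4 of 4 libraries; exact p = 0.125 each), while the long-arm clusters differed by -0.02 ± 0.06 (exact p = 0.625). Against the reference medians of 3.47, 3.32, 3.37 and 3.24, the mean differences were -0.12, -0.37 and -0.35, with the same sign in 4 of 4 libraries. The pericentromeric difference turned to 0.12 against chromosomes 1 to 22 and X and to 0.011 against the rest of chromosome 19.

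The upper tail of the fold separated the clusters more widely. In the pericentromeric cluster 90, 72, 92 and 57 peaks had a fold of 4 or more (10.8%, 8.82%, 11.1% and 7.35% in the same order of libraries). Over chromosomes 1 to 22 and X the corresponding shares were 9.22%, 7.52%, 9.68% and 5.60%, so the pericentromeric shares lay a little above the background in each library but were near it. Only 8, 7, 14 and 6 peaks of the inner long-arm cluster (2.40%, 2.08%, 4.20% and 1.88%) and 12, 10, 17 and 10 of the distal long-arm cluster (2.42%, 2.06%, 3.56% and 2.34%) reached it. The long-arm shares lay below the background in every library. At this threshold the density contrast with the reference block reversed in the long-arm clusters, to a mean log2 of -1.29 in each, and was 0.63 in the pericentromeric cluster. The pericentromeric density then exceeded that of the inner and of the distal long-arm cluster by a mean log2 of 1.92 each (exact p = 0.125). The excess of long-arm peaks per Mb over the reference block, counted as listed intervals, was therefore one of low-fold peaks.

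**Figure D2:**
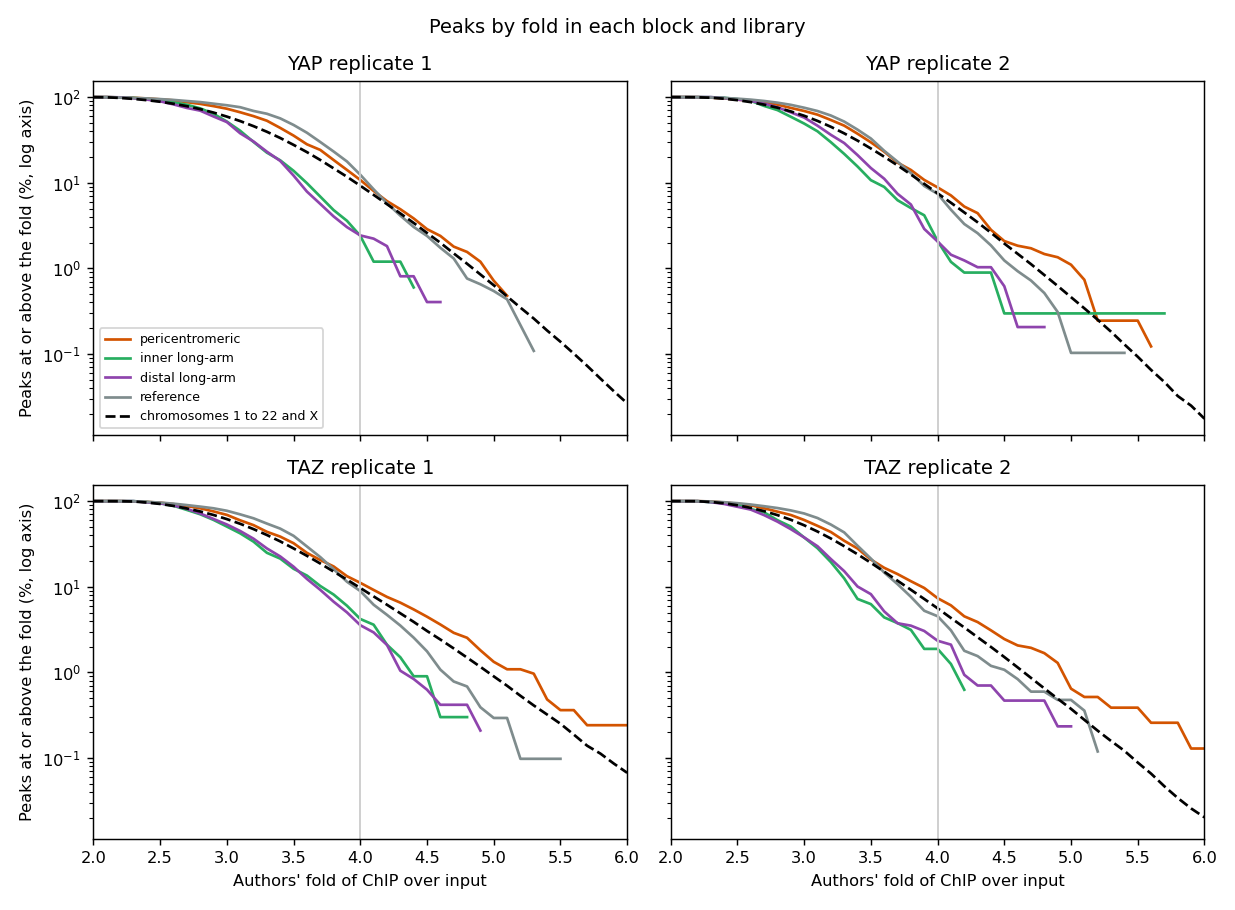
Share of deposited peaks (%, log axis) at or above each fold (the authors' enrichment of ChIP over input, no unit, drawn from 2 to 6), 1 panel per library, 1 line per block and a dashed line for chromosomes 1 to 22 and X; the grey vertical line marks a fold of 4. There the pericentromeric cluster holds 7.35% to 11.1% of its peaks and the long-arm clusters 1.88% to 4.20%, below the dashed line in every panel.

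A strong peak was defined as one of the 20000 peaks of a library with the highest −log10 q. The pericentromeric cluster held 31, 39, 54 and 52 of them in YAP replicates 1 and 2 and TAZ replicates 1 and 2, or 3.71%, 4.78%, 6.52% and 6.71% of its peaks. By construction the background shares over chromosomes 1 to 22 and X were 5.10%, 5.66%, 6.00% and 6.44%. The pericentromeric share thus lay below the background in both YAP libraries. In both TAZ libraries it lay a little above the background but was near it. The inner long-arm cluster held 0, 2, 2 and 3 strong peaks and the distal long-arm cluster 1, 4, 3 and 5, all at 1.17% of peaks or less. Per Mb, the pericentromeric cluster had 7.05, 8.86, 12.3 and 11.8 strong peaks and the reference block 3.38, 3.85, 5.69 and 4.31, a mean ratio of 2.29 (log2 1.20 ± 0.18, SD, n = 4; exact p = 0.125). The reference block was itself low in strong peaks, which made up 2.39%, 2.57%, 3.62% and 3.34% of its peaks, below the background in each library. Over chromosomes 1 to 22 and X each library had 6.59 strong peaks per Mb by construction. The pericentromeric value of YAP replicate 1 was near that level. The inner and distal long-arm clusters lay below the reference block, with mean log2 ratios of -2.09 ± 1.09 and -1.73 ± 0.74 after 0.5 was added to each count (exact p = 0.125 each). The pericentromeric density was 9.77 times the inner and 7.60 times the distal long-arm density on the same scale. It was lower than in the rest of chromosome 19, which had 20.4, 17.4, 14.9 and 13.5 strong peaks per Mb (mean log2 ratio -0.73).

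Rank within each library's own list gave the same order of clusters. Past the midpoint of the list, ordered by −log10 q, stood 34.0% to 46.7% of pericentromeric peaks, 72.7% to 75.4% of inner long-arm peaks and 66.4% to 74.3% of distal long-arm peaks, against 26.5% to 36.9% of reference peaks. The peak caller's significance at a given fold moved with this ranking. Among peaks with a fold of 3 to 3.5, the median −log10 p was 5.63, 4.89, 4.39 and 4.44 in the pericentromeric cluster, 4.92, 4.39, 4.12 and 4.09 in the inner and 4.96, 4.44, 4.17 and 4.17 in the distal long-arm cluster. The reference values were 5.68, 4.89, 4.46 and 4.55. Long-arm peaks thus had lower significance than pericentromeric peaks of like fold in all 4 libraries, and the part of this in the counts of strong peaks was not tested. With the 20000 best peaks ranked by fold instead, the mean log2 ratios to the reference block were 0.93 in the pericentromeric, -1.12 in the inner and -0.92 in the distal long-arm cluster.

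Along each cluster, coverage varied by the same profile in all 4 libraries. In windows of 100 kb the mean covered share ran from 4.19% to 47.9% in the pericentromeric cluster (median 31.8%), from 10.9% to 47.8% in the inner (median 30.7%) and from 8.35% to 50.7% in the distal long-arm cluster (median 26.6%). All 44 pericentromeric and all 18 inner long-arm windows and 25 of the 26 distal windows had under 50% of their bases under peaks, against 8 of 65 reference windows. The windows of a cluster kept their order between libraries, with Spearman's rho of 0.848 to 0.957, 0.818 to 0.915 and 0.803 to 0.923 for the 6 pairs of libraries. These correlations are across windows of libraries that may share an input, and they are given as a description. Within the clusters windows with more peaks had more covered bases (rho 0.70, 0.52 and 0.72), while in the reference block they had fewer (rho -0.86).

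The fullest pericentromeric window, chr19:21200000-21299999, was covered to 54.6%, 54.3%, 42.6% and 40.3% (YAP 1, YAP 2, TAZ 1, TAZ 2), and the next, chr19:23800000-23899999, to 54.7%, 50.4%, 47.5% and 38.3%. The emptiest, chr19:20500000-20599999, was covered to 4.45%, 4.09%, 4.47% and 3.75% and contains a stretch of 58468 bp, chr19:20522128-20580595, without a peak in any list. Of the 4 peak-free stretches over 20 kb, 3 lay in the pericentromeric cluster, the others being chr19:20683027-20707643 and chr19:21047030-21085309, and 1 in the inner long-arm cluster, chr19:53765932-53786292. No hg19 sequence was at hand, so whether reads could be placed in these stretches, or whether they hold assembly gaps, was not checked. A stretch without a peak therefore need not be one without binding. In the inner long-arm cluster the 3 emptiest windows lay side by side at chr19:52300000-52599999, with means of 10.9%, 13.3% and 16.9%, and the fullest was chr19:53000000-53099999 with 47.8%. In steps of 500 kb this cluster went from 19.3% to 35.7%, 36.8% and 24.1%. The distal long-arm cluster was thinnest at chr19:57000000-57499999 with 15.8% and fullest at chr19:58500000-58999999, toward the end of the chromosome, with 36.6%. Its single window above 50%, chr19:58600000-58699999, was covered to 59.4%, 47.4%, 52.3% and 43.7%.

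**Figure D3:**
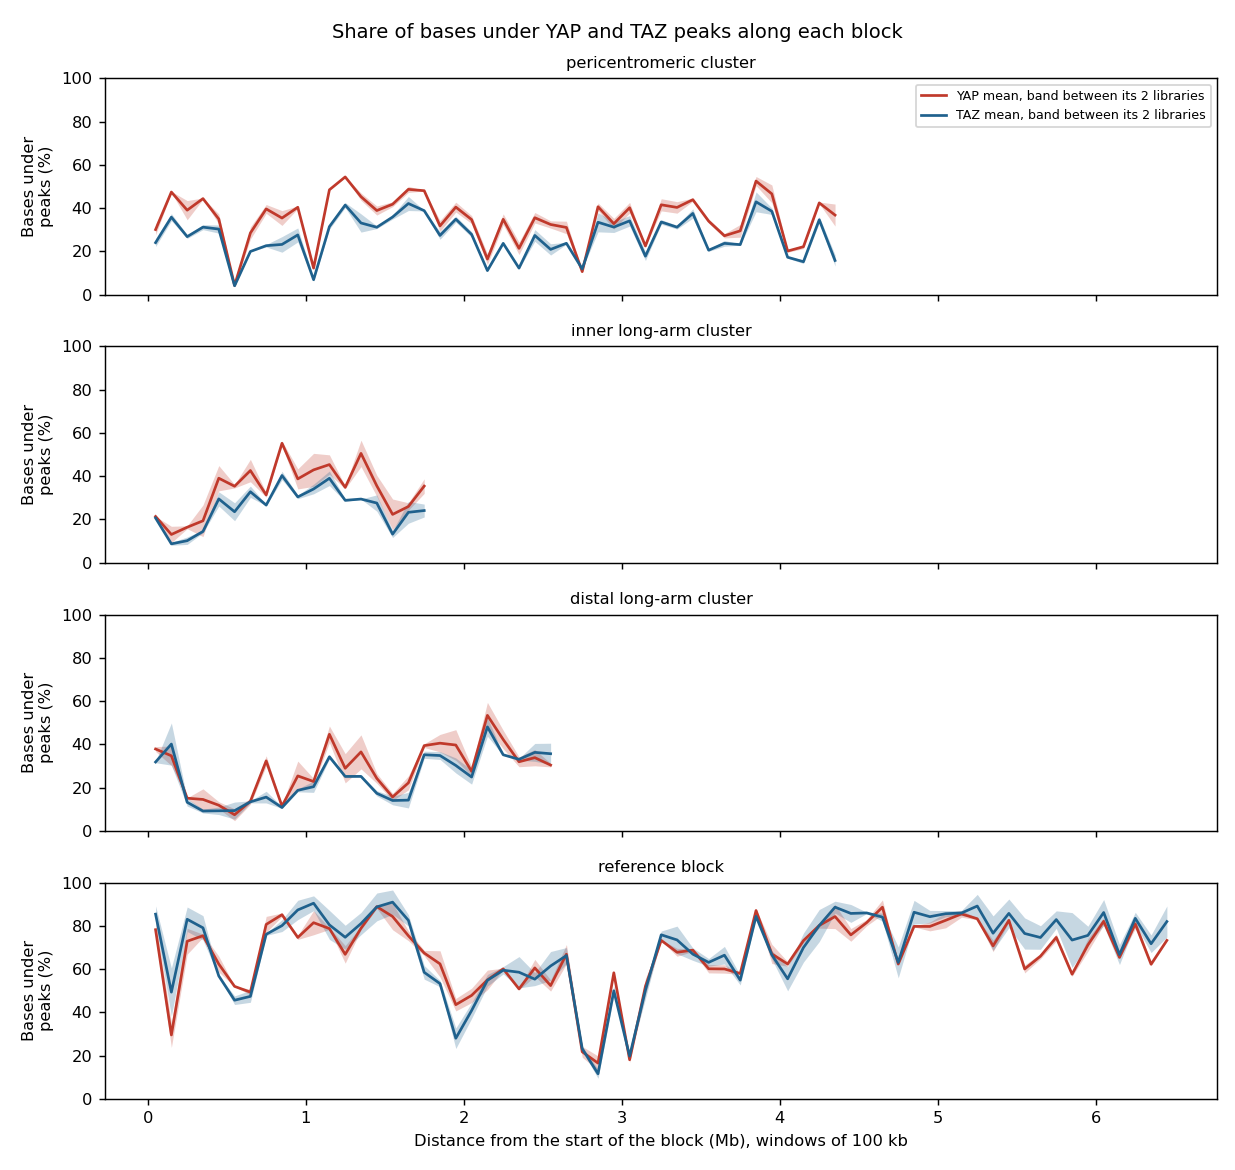
Bases under peaks (%) in windows of 100 kb along the 3 clusters and the reference block, against the distance from the start of each block (Mb); lines are the means of the 2 YAP (red) and the 2 TAZ libraries (blue), and each band spans its 2 libraries. Both antibodies rise and fall at the same places, and both YAP libraries lie above both TAZ libraries in 41 of 44 pericentromeric windows.

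YAP lists covered more of the clusters than TAZ lists. In the pericentromeric cluster the YAP libraries covered 35.1% ± 2.4 and the TAZ libraries 26.8% ± 0.73 of bases (SD, n = 2 each), a difference of 8.32 points. In the inner long-arm cluster the values were 33.7% ± 5.2 and 25.4% ± 1.5 (8.26 points), and in the distal long-arm cluster 28.4% ± 4.5 and 24.4% ± 0.088 (3.96 points). The antibodies did not overlap in these clusters, and the exact two-sided permutation test of 2 against 2 libraries gave p = 0.333 for each, the smallest it allows. In the reference block they overlapped, at 67.0% ± 0.38 and 69.2% ± 4.7 (permutation p = 1). The YAP lists were longer, with 392120 and 353336 peaks against 333505 and 310657. When each list kept only as many of its best peaks as the shortest list held, the differences were 6.94, 4.93 and 0.192 points, and without YAP replicate 1 they were 6.65, 4.58 and 0.798 points. Among peaks kept up to a q-value of 0.01 they were 10.7, 15.1 and 9.56 points, and without YAP replicate 2 they were 10.0, 11.9 and 7.12 points. The sign of the mean difference held under each of these settings, and the size of the distal difference moved most. With equal list lengths the antibodies overlapped in the distal cluster, at 25.4% and 22.6% with YAP and 23.3% and 24.3% with TAZ.

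Window by window the same contrast appeared. Both YAP libraries covered more than both TAZ libraries in 41 of 44 pericentromeric windows (93.2%), 12 of 18 inner long-arm windows (66.7%) and 8 of 26 distal windows (30.8%), against 52.9% of all 100 kb windows and 12 of 65 reference windows (18.5%). Both TAZ libraries lay above both YAP libraries in 1, 0 and 0 windows of the clusters, against a background of 4.78% and 18 of 65 windows (27.7%) of the reference block. With lists of equal length, YAP was above in 36 of 44, 9 of 18 and 4 of 26 windows with a background of 36.3%, and TAZ in 1, 1 and 4 windows with a background of 11.2%. The pericentromeric count thus stayed above the background at both list lengths, the inner long-arm count was nearer to it, and the distal count lay below it. Neighbouring windows are not independent of each other.

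Unscaled, YAP libraries also had slightly more peaks per Mb on average, 187.7 ± 3.2 against 182.2 ± 8.5 in the pericentromeric, 186.1 ± 0.79 against 181.1 ± 5.5 in the inner and 188.5 ± 2.7 against 174.0 ± 13.9 in the distal long-arm cluster (SD, n = 2 each). In the pericentromeric cluster the antibodies overlapped, as TAZ replicate 1 (188.2) lay above YAP replicate 2 (185.5). The unscaled difference was not tested. Relative to each library's density over chromosomes 1 to 22 and X the order turned, with log2 differences of YAP from TAZ of -0.17, -0.17 and -0.09 and no overlap in any cluster (exact permutation p = 0.333 each, 0.533 adjusted over 8 tests). At a q-value of at most 0.01 the scaled difference was -0.22 in the pericentromeric cluster but 0.059 and 0.19 in the inner and distal long-arm clusters. Covered share on the same scale, as a multiple of that library's share over chromosomes 1 to 22 and X, was 2.17 and 2.26 with YAP and 2.05 and 1.88 with TAZ in the pericentromeric cluster, 2.20 and 2.03 with YAP and 1.98 and 1.74 with TAZ in the inner cluster, and overlapped in the distal one. In scaled peak density the reference block had a log2 difference of -0.18 with overlapping libraries (exact permutation p = 0.667). Its scaled covered share was 3.94 and 4.55 with YAP and 4.94 and 5.18 with TAZ (exact permutation p = 0.333). There the antibodies did not overlap, and their order was opposite to that in the pericentromeric and inner clusters. Strong peaks were denser with TAZ in the pericentromeric cluster, 12.0 ± 0.32 against 7.95 ± 1.3 per Mb (SD, n = 2 each), a geometric mean ratio of 1.52 (exact permutation p = 0.333). The reference block also had more strong TAZ peaks (log2 -0.45). In the long-arm clusters the libraries of the antibodies overlapped.

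How far the lists agreed depended on the overlap asked for. When all deposited peaks were merged where they touched by at least 1 bp, the pericentromeric cluster gave 845 regions, of which 523 (61.9%, 95% Wilson interval 58.6% to 65.1%) had a peak in all 4 lists. The inner long-arm cluster gave 349 regions with 186 in all 4 (53.3%, 48.1% to 58.5%), and the distal long-arm cluster 547 with 257 (47.0%, 42.8% to 51.2%). The reference block had 414 of 558 (74.2%) and chromosomes 1 to 22 and X 39.2%. At a q-value of at most 0.01 the inner and distal shares, 23.7% and 20.04%, fell below their background of 28.5%, while the pericentromeric share was 47.8%. Merged regions were wider in the reference block, with a median of 3422.5 bp against 1474, 1592 and 1334 bp in the clusters, and the part of this width in the agreement was not tested. When a partner peak had instead to share 50% of both peaks, 32.2% of the YAP replicate 1 peaks of the pericentromeric cluster had one in each other list, against 20.3% in the reference block and 21.7% over chromosomes 1 to 22 and X. The inner and distal long-arm clusters had 13.8% and 18.0% on this measure. Pericentromeric agreement thus lay below the reference block by touching and above it by reciprocal overlap, while the long-arm clusters lay below the reference block by both. The intervals cover counting error over regions only. Measured over bases, 17.4% of the pericentromeric cluster was under a peak of all 4 lists and 43.8% under a peak of any; the inner long-arm cluster had 10.4% and 48.7%, the distal long-arm cluster 10.0% and 43.8% and the reference block 48.6% and 85.1%. The Jaccard index, bases under peaks of both lists over bases under either, ran over the 6 pairs of lists from 0.567 to 0.733, 0.388 to 0.576 and 0.435 to 0.544 in the 3 clusters and from 0.716 to 0.796 in the reference block. In each cluster the pair of YAP lists had the highest and the pair of TAZ lists the lowest index.

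**Figure D4:**
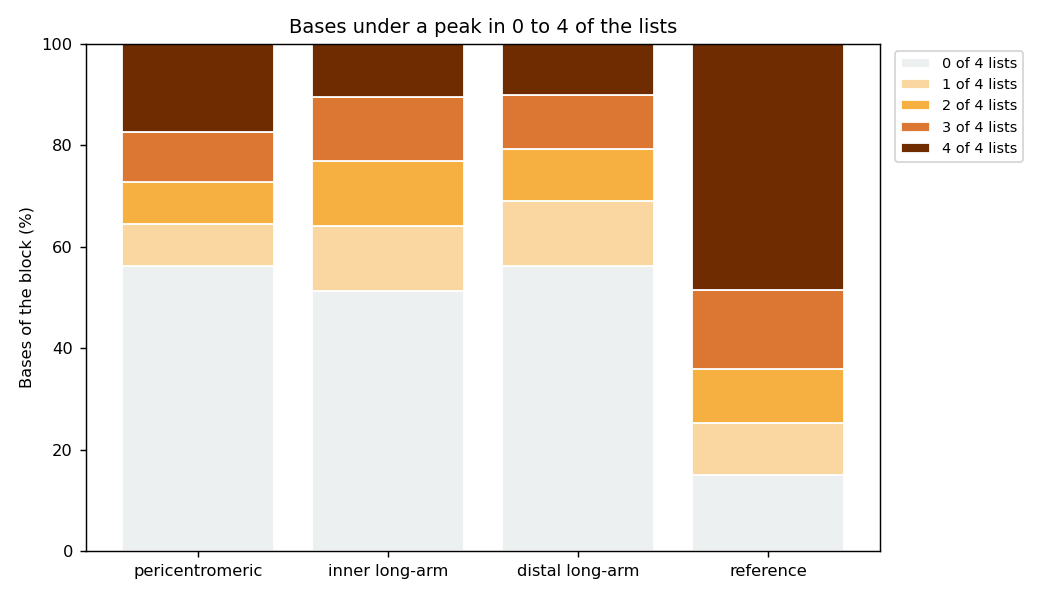
Bases of each block (%) under a peak in 0, 1, 2, 3 or all 4 of the peak lists, stacked to 100%. The share under all 4 lists is 17.4% in the pericentromeric cluster, 10.4% and 10.0% in the long-arm clusters and 48.6% in the reference block.

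Regions of 1 antibody alone were few. Both YAP lists and neither TAZ list had a peak in 41 pericentromeric (4.85%), 15 inner (4.30%) and 27 distal long-arm regions (4.94%), against a background of 6.87%. Both TAZ lists and neither YAP list had a peak in 3 (0.355%), 6 (1.72%) and 8 (1.46%), against 1.44%. These shares lay near or below the background. At a q-value of at most 0.01 the YAP-only shares of the inner and distal long-arm clusters, 12.4% and 13.1%, lay above their background of 10.3%, and with equal list lengths the TAZ-only shares, 3.80% and 5.32%, lay above theirs of 3.12%. Among strong peaks, 144 pericentromeric, 7 inner and 13 distal long-arm regions were formed, and none of them was strong in all 4 libraries, against 1.28% of the strong regions of chromosomes 1 to 22 and X. With 50000 strong peaks per library 3 of 336 pericentromeric regions were strong in all 4, against 3.06% of all such regions. In the pericentromeric cluster 4 regions (2.78%) were strong in 3 libraries, 24 (16.7%) in 2 and 116 (80.6%) in 1, near the 4.25%, 16.5% and 78.0% of chromosomes 1 to 22 and X; every strong region of the long-arm clusters was strong in 1 library only. Both TAZ libraries were strong in 13 pericentromeric regions (9.03%, against a background of 5.79%) and both YAP libraries in 2 (1.39%, against 6.90%), and each of these had a deposited peak of the other antibody.

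Whether strong pericentromeric peaks recurred more often than those of the reference block depended on the rank asked of the partner. Of the strong pericentromeric peaks, 18 of 31 in YAP replicate 1, 25 of 39 in YAP replicate 2, 39 of 54 in TAZ replicate 1 and 44 of 52 in TAZ replicate 2 met a peak of any rank in each of the other 3 lists (58.1%, 64.1%, 72.2% and 84.6%). Over chromosomes 1 to 22 and X the shares were 72.4%, 71.4%, 77.3% and 79.8%, and in the reference block 17 of 22, 21 of 25, 32 of 37 and 27 of 28. A strong peak of another list was met in 6, 14, 21 and 19 cases (19.4%, 35.9%, 38.9% and 36.5%), against 43.1%, 39.1%, 38.3% and 38.5% over chromosomes 1 to 22 and X. In the reference block these shares were 13.6%, 12%, 13.5% and 10.7%. The share meeting a partner was thus lower than in the reference block for partners of any rank and higher for strong partners, in each library. More of the reference block was under peaks, while strong peaks were denser in the pericentromeric cluster. The part of these differences in the shares was not tested. YAP replicate 1 alone had strong pericentromeric peaks, 3 in number, that met no peak of any other list.

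The 4 pericentromeric regions strong in 3 libraries were of unlike shape. At chr19:21686636-21687064 the fold was 4.13, 4.10, 4.37 and 4.19 (YAP 1, YAP 2, TAZ 1, TAZ 2), the most even of the 4. At chr19:24119682-24120314 it was 3.53, 5.66, 6.83 and 7.86, and the peak stood at ranks 398, 95 and 50 in YAP replicate 2 and TAZ replicates 1 and 2 but at 87493 in YAP replicate 1. That region carried the highest fold of any cluster peak in both TAZ libraries, and the YAP replicate 1 peak over it was 2069 bp wide against 452, 623 and 591 bp. At chr19:22586658-22587133 the fold was 5.06, 4.78 and 4.87 in YAP replicates 1 and 2 and TAZ replicate 1 but 2.40 in TAZ replicate 2. At chr19:24183474-24187503 it was 2.44, 2.90, 3.31 and 3.43, low throughout over a wider region of 4030 bp. Of the regions strong in 2 libraries, chr19:23299051-23299844 had the lowest sum of ranks, with a fold of 3.84, 4.92, 4.91 and 3.88.

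The leading long-arm regions were each strong in 1 library only, though at some of them another library had a like fold. In the inner cluster, chr19:53790043-53791002 had a fold of 4.07, 3.28, 3.28 and 4.13 and was strong in TAZ replicate 2 alone. The other 4 leading inner regions, at chr19:53664000-53664354, chr19:52874507-52874833, chr19:52860598-52861754 and chr19:53305976-53306242, each had a fold of 4.21 to 4.82 in 1 library and of at most 3.43 in the others, with no TAZ replicate 1 peak at the last. The highest fold of the inner cluster, 5.74 in YAP replicate 2 at chr19:52488922-52489331, met a peak in only 1 other list. In the distal cluster, chr19:58657858-58659253 had a fold of 3.21, 3.31, 3.58 and 5.10 and was strong in TAZ replicate 2. At chr19:57231214-57231533 the fold was 4.09, 3.83 and 4.89 in YAP replicates 1 and 2 and TAZ replicate 2, with no peak in TAZ replicate 1. The regions at chr19:56912318-56913913 and chr19:56749194-56749684 were led by TAZ replicate 2 (4.16 and 4.43), and chr19:58064717-58065040 by TAZ replicate 1 (4.90). YAP replicates 1 and 2 and TAZ replicate 1 had 3.73, 3.83 and 2.63 at the first and 3.77, 2.87 and 3.62 at the second. At the last, YAP replicates 1 and 2 and TAZ replicate 2 had 2.50, 3.86 and 3.16. The highest-fold YAP replicate 1 peak of the distal cluster, 4.68 at chr19:57725631-57725998, met no peak of any other list.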

How the data were processed

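The 4 deposited lists hold broad peaks called in each library against an input. The submitters' processing notes name MACS2, Bowtie2, cutadapt and SAMtools and the build hg19; in the sources used here their versions and settings are not given. Fold is a ratio, the enrichment over input as the authors deposited it. The −log10 of p and of q was deposited by the authors as their peak caller wrote it. Contrasts between blocks compared these values inside a list, and thresholds of fold or q were applied alike to every list. At the named regions the folds of the 4 lists are set side by side. The lists differ in their share of peaks at a fold of 4 or more, so such folds are not on 1 proven scale. The smallest deposited −log10 q was 1.00 to 1.02. Peak names in all 4 lists named 1 common input while the lists' own names pointed to another for each replicate, so which input was used is unsettled, and overlaps may come from shared input reads. Depth is unknown, and artefact-prone regions were not masked.

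The members and lists were chosen with earlier results of these data known; so were the anchors of the gene runs, taken from general knowledge without a check of their hg19 positions. A peak belongs to a block by its midpoint; covered bases were clipped to the block. Strong-peak ratios had 0.5 added to each count, since YAP replicate 1 had 0 strong peaks in the inner long-arm cluster. Contrasts between blocks used two-sided exact sign-flip tests over 4 libraries (30 adjusted together by Benjamini-Hochberg), and YAP was compared with TAZ by exact permutation. No contrast can pass 0.05. Regions named were, per cluster, the 5 strong in the most libraries with the lowest sum of ranks, the widest and the highest-fold peak of each library, regions of 1 antibody, and the 3 fullest and 3 emptiest windows of 100 kb, summarised where alike. Alternatives were other thresholds (fold, q-value, number of strong peaks), equal list lengths, trimmed borders, other references, a replicate block and each library left out. Scripts used Python 3.11.15, NumPy 2.4.6, pandas 2.3.3, SciPy 1.17.1 and Biopython 1.88, and were tested on simulated data.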

Additional observations from a re-analysis of the deposited data

Results flagged for a closer look

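The log2 ratio of peak density between the pericentromeric and the distal long-arm cluster was -0.0029 and -0.0084 in YAP replicates 1 and 2 and 0.034 and 0.10 in TAZ replicates 1 and 2. Both YAP libraries thus lay below 0 and both TAZ libraries above it, with a difference of -0.073 between the antibodies. This difference between the antibodies was not tested.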

How the results depend on the processing

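Depth is unknown, the labels do not say whether replicates are separate cultures, no contrast can pass 0.05, and the YAP lists are longer than the TAZ lists. Of the alternative values, 435 kept the direction or stayed near the reported value, 27 reversed and 54 moved. All 54 that moved were shares of merged regions in every list or counts of regions of 1 antibody, and few values of these results stayed near. The contrasts were scored by direction only. The cause was not tested. Equal-length lists for the agreement and the regions of 1 antibody, and the covered-share comparison of YAP with TAZ, were added after seeing the data. Clusters are named in the order pericentromeric, inner, distal.

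Against chromosomes 1 to 22 and X, covered share reversed to 16.2, 14.8 and 11.6 points, log2 width to 0.81, 0.85 and 0.59 and pericentromeric fold to 0.12. Against the rest of chromosome 19, pericentromeric fold reversed to 0.011 and log2 strong density to -0.73. At a fold of at least 4, log2 density against the reference block reversed to -1.29 (inner) and -1.29 (distal), inner against distal covered share to -0.037 points and log2 width to -0.072, and pericentromeric against inner log2 width to 0.36. At a q-value of at most 0.01 that width reversed to 0.044, and YAP against TAZ log2 density to 0.059 (inner) and 0.19 (distal). With trimmed borders, pericentromeric against inner covered share reversed to -5.64 points and log2 density to -0.082, and pericentromeric against distal log2 density to -0.00072. With 5000 strong peaks, log2 strong density reversed to 0.35 for inner against distal and to 0.79 for YAP against TAZ in the inner cluster.

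With 1 library left out, inner against distal log2 density ran from -0.0090 to 0.040 and fold from -0.040 to 0.0046, pericentromeric against inner log2 width from -0.10 to 0.025, and distal YAP against TAZ log2 strong density from -1.55 to 0.037, reversed without YAP replicate 1. The inner against distal reversals came without TAZ replicate 2 (density) and YAP replicate 2 (fold), and those of width without TAZ replicate 1 (0.0090) and YAP replicate 1 (0.025). The share of merged regions in every list ran from 65.5% to 71.7%, 57.8% to 62.0% and 52.5% to 57.5%, YAP-only regions from 59 to 111, 31 to 41 and 43 to 72 and TAZ-only regions from 10 to 25, 9 to 19 and 21 to 32, since fewer lists must meet the condition.

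With 50% reciprocal overlap, counted over the peaks of YAP replicate 1, the shares in every list were 32.2%, 13.8% and 18.0% (21.7% over chromosomes 1 to 22 and X). YAP-only peaks were 120 of 836, 47 of 334 and 59 of 495 (14.4%, 14.1% and 11.9%, against 13.5%), and TAZ-only peaks of TAZ replicate 1 were 70 of 828, 36 of 333 and 31 of 478 (8.45%, 10.8% and 6.49%, against 6.45%). At a q-value of at most 0.01 the shares were 47.8%, 23.7% and 20.04%, against 28.5% over chromosomes 1 to 22 and X. Both long-arm shares thus lay below that background, unlike those over all deposited peaks. There were 42 inner and 66 distal YAP-only regions (12.4% and 13.1%, against 10.3%). TAZ-only regions were 7 in the pericentromeric and 3 in the inner cluster (0.872% and 0.888%, against 0.939%). With equal list lengths the shares in every list were 42.1% (inner) and 34.8% (distal), against 35.3%. TAZ-only regions were then 12, 13 and 28 (1.47%, 3.80% and 5.32%, against 3.12%).

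Replicate numbers are shared between antibodies, but nothing says that they mark a shared batch. Deviations of same-numbered libraries from their antibody means correlated at 0.42 over 2886 windows of 1 Mb, across 2 pairs only. With the replicate number as a block, the YAP against TAZ differences were those reported (covered share 8.32, 8.26 and 3.96 points), and the exact p cannot fall below 0.5.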
